A study of Mus musculus with 4 samples.

Results

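The cytokine genes Tslp, Il33, Il1a, Il1b, Il1rn, Il18, Il34, Il6, Csf1 and Csf2 were read on every probe set that the platform annotation gives to them, 15 probe sets of 45101 on the array, and stood for 10 of the 18193 genes tested. The genes were chosen from the log2 difference between the genotypes in these data, in which Tslp already stood out, together with other cytokines that keratinocytes make. The values of these 10 genes are therefore a description. Whether each passed the threshold in the fit of the whole table is stated as part of it, without a p-value and not as a test of these genes. The arrays came from basal interfollicular cells of mouse tail epidermis, sorted as integrin alpha 6 positive and CD34 negative. Labels gave 2 genotypes. K14CreER:SmoM2:Sox9cKO cells (the Sox9cKO group, 2 arrays) carried SmoM2, a constitutively active Smoothened that turns on Hedgehog signalling, together with conditional deletion of Sox9, a transcription factor of hair follicle cells. K14CreER:SmoM2 cells (the SmoM2 group, 2 arrays) carried SmoM2 with Sox9 present. All mice thus carried K14CreER, a tamoxifen-dependent Cre recombinase driven by a basal keratinocyte promoter, and SmoM2, and there was no group without SmoM2. All received 2.5 mg of tamoxifen on each of 10 days and were taken 9 weeks after the first dose. How many animals stand behind an array is not stated in the labels, so p-values measure only the spread between these samples, which may be technical.

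Keratinocytes make cytokines that reach immune cells resident in the skin. TSLP acts on dendritic cells and other leukocytes through a receptor of Crlf2 and Il7r and is known for its part in atopic skin inflammation. IL-1 alpha, IL-1 beta, IL-33, IL-18 and the IL-36 cytokines form the IL-1 family, which signals through paired receptors to NF-kB and is restrained by antagonists and decoy receptors. IL-34 and CSF1 are both ligands of Csf1r, and IL-34 from keratinocytes maintains Langerhans cells.

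Values are the deposited log2 signals, and a difference is Sox9cKO minus SmoM2 on that scale. The median signal lay between 5.45 and 5.48 on the 4 arrays, and r between arrays over all probe sets was 0.991 within each genotype and 0.978 to 0.980 between genotypes. Bacterial labelling controls averaged 9.19 and 7.66 in Sox9cKO replicates 1 and 2, against 9.00 and 8.30 in SmoM2 replicates 1 and 2, so replicate 2 was lower in both genotypes. At its brightest probe set in SmoM2, Sox9 had 6.75 and 5.70 in the Sox9cKO arrays, against 10.21 and 10.02 in the SmoM2 arrays. Its other 2 probe sets were not called. One of them is the brightest by mean over all arrays, the choice made for other genes. It had 8.06 and 8.48 in Sox9cKO, against 8.77 and 9.27 in SmoM2 (difference -0.75). The remaining probe set differed by -0.41. Where the probes lie relative to the deleted part was not looked up here. As a guide to the signal of an unexpressed gene, 12 genes of other organs, among them Alb of liver and Prm1 of sperm, read between 3.27 and 6.19. Probe sets differ in brightness, so this range shows only where a level above background was not shown. The 10 basal keratinocyte markers averaged 10.93 and 11.00 in the Sox9cKO arrays, against 11.16 and 11.46 in the SmoM2 arrays. With 2 arrays a group an exact permutation test of 1 gene cannot go below p = 0.333, so every call below leans on the variance that limma pools over genes, and the number of arrays limits the precision.

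Tslp was high in Sox9cKO cells and at background in SmoM2 cells, Il1rn was lower in Sox9cKO cells, and the other 8 cytokine genes were not called. At an adjusted p under 0.05 (limma, over all genes), 1 of the 10 was called higher and 1 lower, where 6.19% of all genes were called (2.66% higher and 3.53% lower). Since the group was formed with this contrast known, nothing is read from that share. The lists of further genes below were also chosen with earlier results of these data known, so their shares are descriptions and not tests. Arrays of the genotypes did not overlap for 7 of the 10 genes, with 2 higher and 5 lower in Sox9cKO, where 47.9% of all genes did not overlap (26% higher and 21.8% lower). The median difference of the 10 genes was -0.10, and that of all genes was 0.02.

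**Figure D1:**
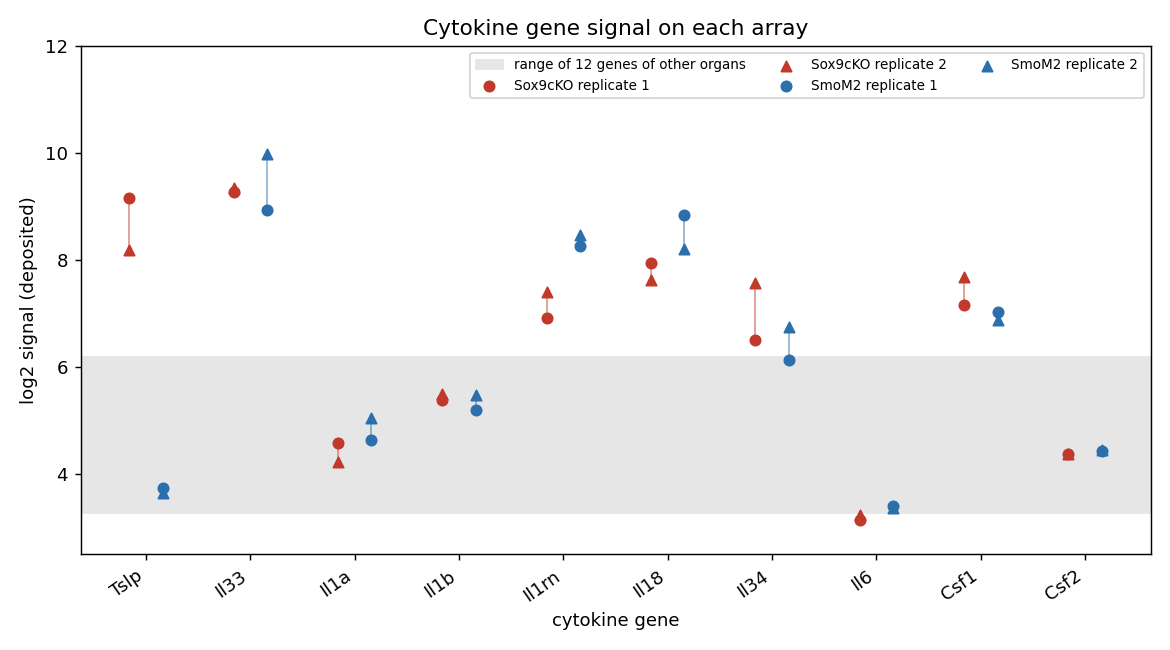
Deposited log2 signal (y axis) of the 10 cytokine genes (x axis) on each array, Sox9cKO in red left of SmoM2 in blue, circles for replicate 1 and triangles for replicate 2, lines joining the replicates. The grey band is the range of 12 genes of other organs, 3.27 to 6.19. Tslp leaves the band only in the Sox9cKO arrays, while Il1a, Il1b, Il6 and Csf2 stay at or below its top on all 4 arrays.

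Tslp, the epithelial cytokine that signals to dendritic cells and lymphocytes, had log2 signals of 9.16 and 8.19 in the Sox9cKO arrays, against 3.73 and 3.65 in the SmoM2 arrays. Both Sox9cKO arrays were high, although they differed from each other (8.68 ± 0.69, SD, n = 2), and both SmoM2 arrays sat among the genes of other organs (3.69 ± 0.06, SD, n = 2). The difference was 4.98 (SE 0.29), which is 31.6-fold, and because the SmoM2 signal lay at background its size is not exact. It was 4.50 without Sox9cKO replicate 1 and 5.47 without Sox9cKO replicate 2. Tslp was read by 1 probe set, so no second set of probes checks it.

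The genes whose profiles over the 4 arrays were closest to that of Tslp were Krt75, Efemp1, Jakmip2, Stc1 and Slc15a2, by Euclidean distance between log2 values after each gene's mean was removed. Krt75, which encodes a hair follicle keratin, was the nearest at a distance of 0.69, with 12.18 and 10.67 in Sox9cKO, against 6.61 and 5.80 in SmoM2. Like Tslp it was higher in Sox9cKO replicate 1 than in Sox9cKO replicate 2. The other 4 genes lay at distances of 1.19 to 1.31. With 4 arrays such a ranking rests mostly on the difference between genotypes.

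The alarmins and IL-1 receptor agonists among the 10 genes were not called. Il33, an alarmin stored in the nucleus, had 9.28 and 9.35 in Sox9cKO, against 8.93 and 9.98 in SmoM2. The SmoM2 arrays lay on either side of the Sox9cKO arrays, and the difference of -0.14 (SE 0.31) became 0.38 without SmoM2 replicate 2. Il18, a cytokine made as a precursor that caspase-1 cleaves, had 7.95 and 7.62 in Sox9cKO, against 8.84 and 8.21 in SmoM2. Its arrays did not overlap, with a difference of -0.74 (SE 0.23) that ranged from -1.06 to -0.43 as each array was left out in turn. Il1a, whose product is active without cleavage, had 4.57 and 4.23 in Sox9cKO, against 4.63 and 5.06 in SmoM2. Il1b, which needs cleavage, had 5.39 and 5.49 in Sox9cKO, against 5.19 and 5.49 in SmoM2. Both stayed within the range of the genes of other organs on every array, so these arrays show no level above background for either.

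Il1rn, which encodes the IL-1 receptor antagonist, was the one of the 10 genes called lower. Its brightest probe set had 6.92 and 7.41 in Sox9cKO, against 8.27 and 8.46 in SmoM2. The genotypes did not overlap, and the means were 7.16 ± 0.35 in Sox9cKO and 8.37 ± 0.14 in SmoM2 (SD, n = 2 each). The difference was -1.21 (SE 0.19), a 2.31-fold lower signal, and it missed the threshold without SmoM2 replicate 1 (-1.30) and without SmoM2 replicate 2 (-1.11). The other probe sets of Il1rn also did not overlap. One had 6.32 and 6.93 in Sox9cKO, against 7.39 and 7.75 in SmoM2, a difference of -0.95 (SE 0.23). The other had 5.75 and 5.90 in Sox9cKO, against 7.25 and 6.91 in SmoM2, a difference of -1.25 (SE 0.17). In the fit over probe sets, where 3.82% were called, the called ones among the 15 were that of Tslp and the first and last of Il1rn, 3 in all. Nothing is read from this count either, since the same difference formed the group.

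**Figure D2:**
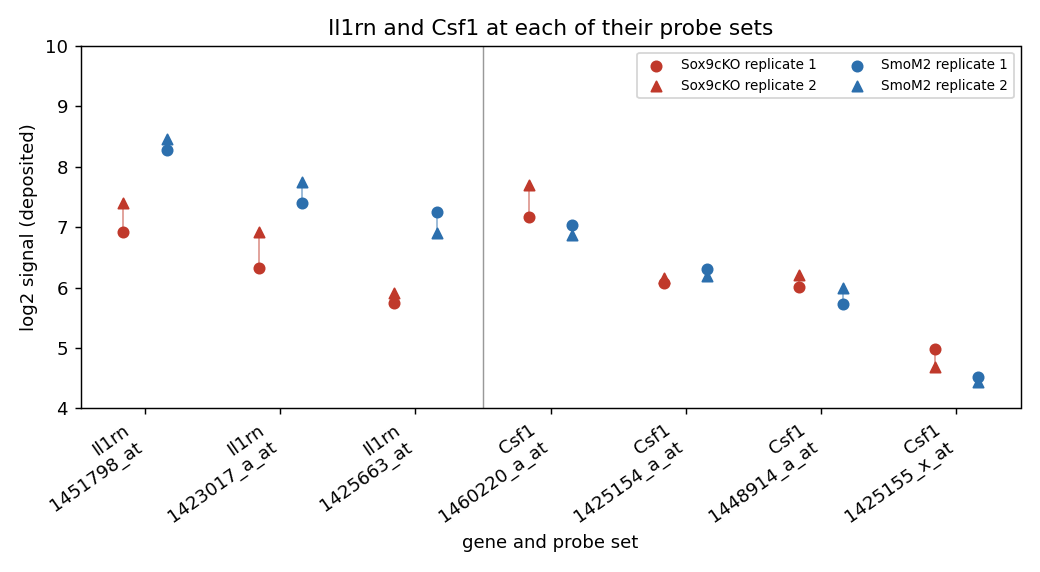
Deposited log2 signal (y axis) at each probe set (x axis) of Il1rn, left of the line, and Csf1, right of it, on each array, Sox9cKO in red left of SmoM2 in blue. All 3 Il1rn probe sets are lower in both Sox9cKO arrays, and the 4 Csf1 probe sets differ by between -0.13 and 0.47.

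Il1rn lies on chromosome 2 at the end of a run of IL-1 family genes. In that run Il1f6, Il1f8 and Il1f9 were called lower in Sox9cKO as well. The gene order was Il1f8, Il1f9, Il1f6, Il1f5, Il1f10, Il1rn and then Psd4 (RefSeq, GRCm38.p6). Il1f6, Il1f8 and Il1f9 encode IL-36 alpha, beta and gamma, agonists that drive keratinocyte and dendritic cell inflammation in psoriasis-like disease. Il1f6 had 5.12 and 4.97 in Sox9cKO, against 7.15 and 7.24 in SmoM2, and fell by 2.15 (SE 0.14, adjusted p = 0.000446), a 4.44-fold lower signal. Il1f9 had 6.32 and 6.37 in Sox9cKO, against 8.39 and 8.50 in SmoM2, and fell by 2.11 (SE 0.13, adjusted p = 0.000446). Il1f8 had 5.84 and 5.78 in Sox9cKO, against 6.96 and 7.56 in SmoM2, and fell by 1.45 (SE 0.21, adjusted p = 0.00737). The Sox9cKO arrays were below both SmoM2 arrays at each of these genes, and all 3 kept their calls as each array was left out. The Sox9cKO signals of Il1f6 and Il1f8 lay within the range of the genes of other organs, so the size of their fall is not exact. Il1f5, the IL-36 receptor antagonist, was named because it stands in this run after its value was seen, and had 8.33 and 8.66 in Sox9cKO, against 8.90 and 8.96 in SmoM2 (difference -0.43, adjusted p = 0.203). Neither Il1f10 (0.13, adjusted p = 0.818) nor Psd4 (-0.08, adjusted p = 0.854), the direct neighbours of Il1rn, was called. Of the 5 IL-1 family cytokines outside the 10 genes, 3 fell and 0 rose, with a median difference of -1.45. Over all genes 3.53% were called lower and 2.66% higher.

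Il1rn and the IL-36 agonist genes of its run were called lower, although Il1f5 and Il1f10, which lie between them, were not called. Promoter windows of Il1rn, Il1f8 and Il1f9 are shown. Each runs from 250 bases before to 50 bases after a RefSeq start site (GRCm38.p6), 5′ to 3′ on the gene's strand. Windows were found for 8 of the 10 cytokine genes and for 14 of 17 genes looked up, the others being Tslp, Il34 and Il1f6. Capitals mark matches, on either strand, to any of TGANTCA (AP-1), GGG followed by any 2 bases and TTTCC (NF-kB), AACAANG (a SOX core), TTNNGCAA (C/EBP) and GACCACCCA (GLI), motifs chosen after the values were seen.
Il1rn upstream start site, chr2:24336610-24336909, plus strand: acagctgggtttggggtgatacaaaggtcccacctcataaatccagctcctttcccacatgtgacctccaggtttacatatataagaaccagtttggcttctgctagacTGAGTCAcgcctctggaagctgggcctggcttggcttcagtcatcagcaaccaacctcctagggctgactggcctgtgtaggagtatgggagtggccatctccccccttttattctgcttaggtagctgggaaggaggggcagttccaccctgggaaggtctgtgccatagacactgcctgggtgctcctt
Il1rn downstream start site, chr2:24345121-24345420, plus strand: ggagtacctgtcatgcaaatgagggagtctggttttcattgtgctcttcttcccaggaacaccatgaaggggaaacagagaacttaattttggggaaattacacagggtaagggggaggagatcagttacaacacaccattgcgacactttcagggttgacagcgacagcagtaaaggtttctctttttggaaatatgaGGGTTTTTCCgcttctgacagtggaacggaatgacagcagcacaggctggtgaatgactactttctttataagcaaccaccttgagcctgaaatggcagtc
Il1f8, chr2:24152922-24153221, plus strand: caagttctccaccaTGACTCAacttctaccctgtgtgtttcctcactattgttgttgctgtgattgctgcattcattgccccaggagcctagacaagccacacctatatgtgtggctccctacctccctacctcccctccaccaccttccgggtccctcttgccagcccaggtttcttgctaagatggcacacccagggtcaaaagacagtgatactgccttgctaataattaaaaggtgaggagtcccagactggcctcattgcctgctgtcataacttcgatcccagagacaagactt
Il1f9, chr2:24186226-24186525, plus strand: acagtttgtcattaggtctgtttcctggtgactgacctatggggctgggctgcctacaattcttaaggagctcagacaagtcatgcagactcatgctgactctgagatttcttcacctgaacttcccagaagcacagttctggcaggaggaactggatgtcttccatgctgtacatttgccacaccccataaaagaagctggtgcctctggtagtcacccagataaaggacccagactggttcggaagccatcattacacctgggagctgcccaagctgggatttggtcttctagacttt
The upstream Il1rn window held 1 AP-1 match, at -141 from the start site, and the downstream one 1 NF-kB match, at -51. A further Il1rn window overlaps the downstream one and holds the same NF-kB match. Il1f8 held 1 AP-1 match, at -236, and these letters were not in the Il1f9 window. Among 32851 windows of the same length, AP-1 letters stood in 7.81%, NF-kB in 1.63%, the SOX core in 14.1%, C/EBP in 10.8% and GLI in 0.253%. Among the 8 cytokine genes with a searched window the SOX core stood in the windows of Il1b and Il6. In the IL-1 run it also stood in that of Il1f10. Of the windows searched, that of Il6 had the most kinds of match, holding AP-1, C/EBP, NF-kB and SOX letters, and had no signal above background. A match is a description of the letters and not a measured binding site.

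Neither ligand of Csf1r was called. Il34 had 6.51 and 7.57 in Sox9cKO, against 6.13 and 6.75 in SmoM2, with overlapping arrays and replicate 2 higher in both genotypes. Its difference was 0.60 (SE 0.35), and it was 0.07 without Sox9cKO replicate 2 and 1.13 without Sox9cKO replicate 1. The labelling controls, given above, also differed between replicates 1 and 2, and their part in this was not tested. Csf1 had 7.17 and 7.69 in Sox9cKO, against 7.03 and 6.88 in SmoM2, at its brightest probe set, a difference of 0.47 (SE 0.19). Of its 4 probe sets, 3 gave a positive difference and 1 a negative one, and the arrays of the genotypes did not overlap at any of them. Csf2, which encodes GM-CSF, had 4.37 and 4.38 in Sox9cKO, against 4.43 and 4.44 in SmoM2. Il6, an acute-phase cytokine, had 3.15 and 3.24 in Sox9cKO, against 3.41 and 3.37 in SmoM2. Csf2 and Il6 lay at background on every array, and their small differences of -0.06 and -0.20 describe no measured level.

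Among receptors of these cytokines, the decoy Il1r2 rose and Il1rap and Ptprz1 fell. Of 16 measured receptor subunits and binding proteins, 1 rose and 2 fell (18.8%, against 6.19% of all genes), with a median difference of -0.02. Il1r2, a decoy that binds IL-1 without signalling, had 10.38 and 9.88 in Sox9cKO, against 8.20 and 7.41 in SmoM2, and rose 5.02-fold (log2 2.33, SE 0.28, adjusted p = 0.00383). Il1rap, the accessory chain that IL-1, IL-33 and IL-36 receptors share, had 7.48 and 7.13 in Sox9cKO, against 8.49 and 8.92 in SmoM2, and fell by 1.40 (SE 0.20, adjusted p = 0.00716). Leaving out SmoM2 replicate 2 gave an adjusted p of 0.0535, and averaging its probe sets gave a difference of -0.80 (adjusted p = 0.0176). Il1r1, the signalling IL-1 receptor, had 8.43 and 7.94 in Sox9cKO, against 7.70 and 7.35 in SmoM2 (difference 0.66, adjusted p = 0.137). The third called gene was Ptprz1, a receptor phosphatase that also binds IL-34, which fell by 1.37 (SE 0.18, adjusted p = 0.00571).

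The receptor chains for TSLP were not called. Crlf2 had 8.62 and 8.61 in Sox9cKO, against 8.46 and 8.18 in SmoM2 (difference 0.30, adjusted p = 0.368). Il7r had 4.58 and 4.45 in Sox9cKO, against 4.22 and 4.22 in SmoM2, within the range of the genes of other organs. Csf1r had 6.79 and 6.53 in Sox9cKO, against 6.69 and 6.53 in SmoM2 (difference 0.05), and the GM-CSF receptor chains Csf2ra and Csf2rb differed by 0.32 and -0.04. The IL-6 receptor chains Il6ra and Il6st differed by -0.02 and -0.37, and the IL-18 receptor chains Il18r1 and Il18rap by -0.37 and -0.04. Il18bp, which neutralises IL-18, differed by -0.07. None of these passed the test.

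**Figure D3:**
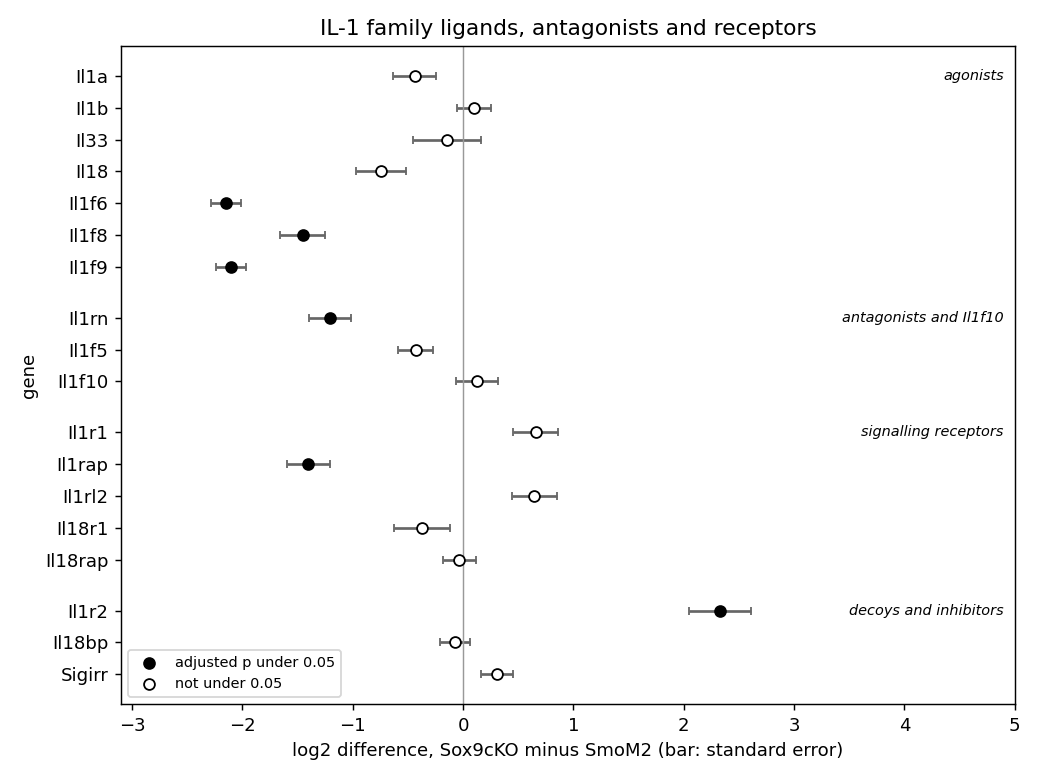
Log2 difference, Sox9cKO minus SmoM2 (x axis), of IL-1 family ligands, antagonists, receptors and decoys (y axis), with bars of 1 standard error and filled points for an adjusted p under 0.05. Il1f6, Il1f8, Il1f9, Il1rn and Il1rap lie between -2.15 and -1.21, and Il1r2 stands alone at 2.33.

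Among 19 receptor genes of other skin cytokines, 3 fell and 0 rose (15.8% called, against 6.19% of all genes, median 0.05). Lifr, the LIF receptor, had 7.34 and 8.03 in Sox9cKO, against 9.31 and 9.89 in SmoM2, and fell by 1.91 (SE 0.27, adjusted p = 0.00749). Osmr, its relative for oncostatin M, fell by 1.36 (SE 0.21, adjusted p = 0.0115), and Il4ra, the shared chain for IL-4 and IL-13, fell by 1.19 (SE 0.19, adjusted p = 0.0142). All lost their calls when SmoM2 replicate 2 was left out, with adjusted p values of 0.0626 for Lifr, 0.0895 for Osmr and 0.104 for Il4ra, and Il4ra also when SmoM2 replicate 1 was left out (0.0793). Averaged over probe sets, the difference was -1.43 for Lifr (adjusted p = 0.00406), -0.65 for Osmr (adjusted p = 0.0467) and -0.57 for Il4ra (adjusted p = 0.0496). Of 19 measured other epidermal cytokines, such as Il7, Il23a, Kitl and Tnf, 0 were called by limma, with 4 at an unadjusted p under 0.05 and a median of 0.03.

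Genes that process IL-1 family cytokines were lower more often than higher. Of 13 measured, 5 fell and 1 rose (46.2% called), and the median was -0.25. Over all genes 6.19% were called, 2.66% higher and 3.53% lower. The list was chosen with earlier results known, so its share is not a test. Casp1, the protease that activates IL-1 beta and IL-18, had 9.45 and 9.02 in Sox9cKO, against 10.44 and 10.36 in SmoM2, and fell by 1.17 (SE 0.17, adjusted p = 0.00929). Nlrp10, an NLR family gene, had 6.44 and 6.88 in Sox9cKO, against 8.71 and 8.24 in SmoM2, and fell by 1.81 (SE 0.21, adjusted p = 0.00348). Casp4 fell by 0.68 (adjusted p = 0.0270), and Gsdma, a pore-forming gasdermin of skin, was the one gene that rose, by 1.19 (SE 0.14, adjusted p = 0.00381). The calls of Nlrp10 and Gsdma held as each array was left out, and that of Casp1 did not without SmoM2 replicate 1 (adjusted p = 0.0743) or SmoM2 replicate 2 (adjusted p = 0.0641). Casp4 lost its call in each such fit, with adjusted p values up to 0.140 without SmoM2 replicate 2, as did the remaining called genes Gsdmd and Capn2.

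Of 21 measured signalling and feedback genes downstream of the IL-1 receptor, 3 fell and 0 rose (14.3%, against 6.19% of all genes). The median difference was -0.33 and 3 of the 21 were positive, where 9774 of all 18193 genes were. The 10 basal keratinocyte markers had a median of -0.42 with 2 positive and 0 called by limma (5 at an unadjusted p under 0.05), and the part of such a shift in the signalling genes was not tested. Zc3h12a, an RNase that degrades cytokine messages, had 7.23 and 7.39 in Sox9cKO, against 8.72 and 9.01 in SmoM2, and fell by 1.55 (SE 0.16, adjusted p = 0.00204). Nfkbiz and Bcl3, nuclear IkB proteins, fell by 0.95 (adjusted p = 0.0282) and 0.70 (adjusted p = 0.0246). A further probe set of Nfkbiz differed by -1.15 (adjusted p = 0.00729 in the limma fit over probe sets). One ran the other way, at 8.52 and 8.61 in Sox9cKO, against 7.88 and 8.24 in SmoM2. Averaged over the probe sets of Nfkbiz the difference was -0.53 (adjusted p = 0.111). Nfkbiz was also lost without Sox9cKO replicate 1 (adjusted p = 0.101), Sox9cKO replicate 2 (adjusted p = 0.0552) or SmoM2 replicate 2 (adjusted p = 0.131), and Bcl3 without any one array (adjusted p of 0.0763 to 0.127). Myd88 and Rela, the adaptor and an NF-kB subunit, differed by -0.11 and -0.10. Of 20 JAK, STAT and SOCS genes, which carry TSLP, IL-6 and GM-CSF signals, 0 were called by limma, with 6 at an unadjusted p under 0.05 and a median of 0.02.

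Genes known from mouse skin or keratinocyte work to regulate Tslp moved both ways. Of 20 measured, 1 rose and 3 fell (20% called, against 6.19% of all genes), with a median of -0.03. Loss of epidermal Notch signalling or of retinoid X receptors raises Tslp in mice. Here Notch1, Notch2, Rbpj, Rxra and Rxrb were not called, with differences of 0.33, 0.36, -0.22, -0.21 and 0.07. Hes1 and Hey1, also genes of Notch signalling, differed by -0.28 and -0.11 and were not called, with Hey1 at background. These are message levels and not signalling activity, and the part of either pathway in the Tslp difference was not tested. Vdr, the vitamin D receptor, had 9.19 and 9.54 in Sox9cKO, against 10.06 and 10.11 in SmoM2, and fell by 0.72 (SE 0.16, adjusted p = 0.0451), while its target Cyp24a1 stayed at background. Spink5, an inhibitor of the kallikreins that act upstream of Tslp, had 5.73 and 7.16 in Sox9cKO, against 8.41 and 10.03 in SmoM2, and fell by 2.77 (SE 0.59, adjusted p = 0.0382). The calcium-regulated factors Nfatc1 and Nfatc2 went opposite ways, by -1.04 (adjusted p = 0.0344) and 1.07 (adjusted p = 0.0455). Averaged over their probe sets, Nfatc1 differed by -1.39 (adjusted p = 0.00217) and Nfatc2 by 0.29 (adjusted p = 0.227). No call of these 4 genes held without SmoM2 replicate 2, with adjusted p values of 0.199 for Vdr, 0.171 for Spink5, 0.195 for Nfatc1 and 0.206 for Nfatc2. Other single arrays also ended calls, namely Sox9cKO replicate 1 for Vdr (0.177), Spink5 (0.0972) and Nfatc1 (0.0884), Sox9cKO replicate 2 for Nfatc2 (0.158), and SmoM2 replicate 1 for Vdr (0.166) and Nfatc1 (0.114). Without SmoM2 replicate 2 the difference of Spink5 was -1.96. Spink5 also missed the threshold with an intensity trend in limma (adjusted p = 0.297). It missed it too in the limma fit to genes averaged over probe sets (adjusted p = 0.0591). Spink5 has 1 probe set, so its own difference was unchanged there. Quantile normalization gave 0.0502 for both Vdr and Nfatc2.

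**Figure D4:**
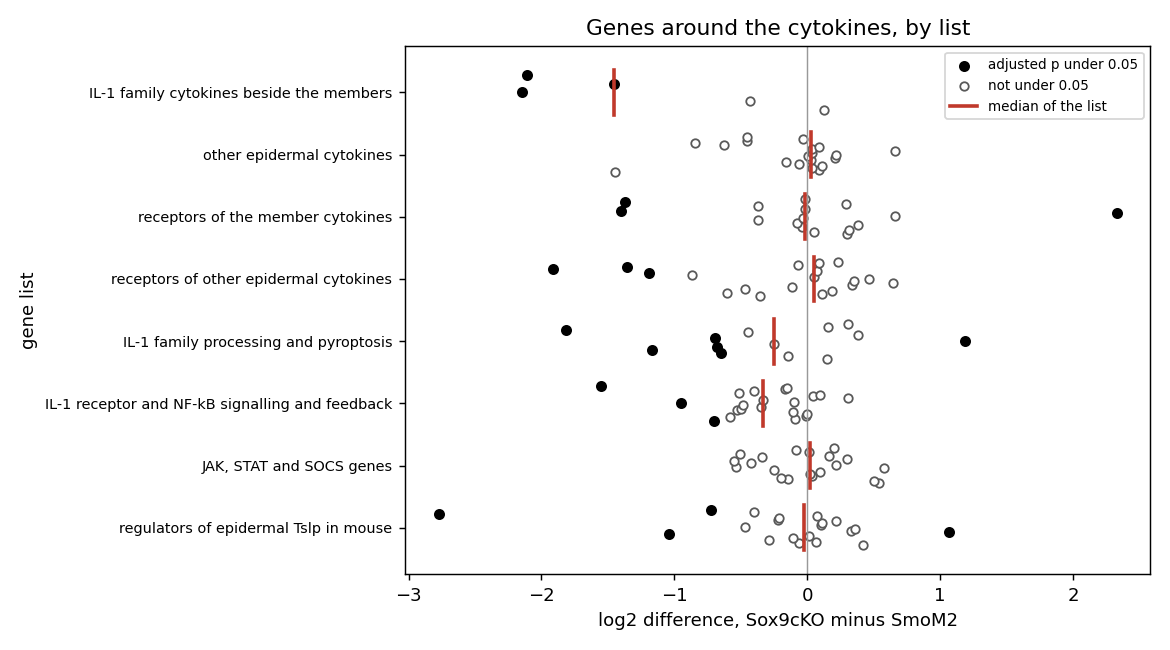
Log2 difference, Sox9cKO minus SmoM2 (x axis), of each measured gene in 8 lists (y axis), filled where the adjusted p was under 0.05, with the median of each list in red. The IL-1 family cytokines have the lowest median, at -1.45, and the medians of the other lists lie between -0.33 and 0.05.

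Immune cell markers were measured beside the cytokines, since leukocytes can also make several of them. Langerhans and myeloid markers averaged 5.45 and 5.47 in Sox9cKO, against 5.24 and 5.07 in SmoM2, and 13 of 16 had a positive difference with a median of 0.25. One was called, H2-Aa, an MHC class II gene, with 7.22 and 7.11 in Sox9cKO, against 5.47 and 5.13 in SmoM2 (difference 1.87, adjusted p = 0.00102). H2-Ab1, another MHC class II gene, overlapped, with 7.97 and 7.75 in Sox9cKO, against 7.88 and 7.66 in SmoM2 (difference 0.09, adjusted p = 0.842). The myeloid marker Cd68 went the other way (difference -0.54, adjusted p = 0.0757), within the range of the genes of other organs. The Langerhans gene Cd207 had 5.08 and 5.39 in Sox9cKO, against 4.96 and 4.54 in SmoM2, and the pan-leukocyte gene Ptprc 3.86 and 4.07 in Sox9cKO, against 4.01 and 3.57 in SmoM2, both within the range of the genes of other organs. The part of these cells in the cytokine values was not tested. T cell markers averaged 4.59 and 4.73 in Sox9cKO, against 4.54 and 4.60 in SmoM2. Mast cell, basophil and neutrophil markers averaged 4.61 and 4.68 in Sox9cKO, against 4.55 and 4.50 in SmoM2. Of 9 fibroblast markers only Dcn was called (difference 3.66). Fbln1 had 8.31 and 7.81 in Sox9cKO, against 8.61 and 8.73 in SmoM2 (difference -0.61, adjusted p = 0.130). Col1a2 had 5.96 and 6.59 in Sox9cKO, against 5.96 and 5.16 in SmoM2 (difference 0.72, adjusted p = 0.273). The other 6, Col1a1 and Col3a1 among them, lay within the range of the genes of other organs on every array. In these bulk samples fewer cells of a type and less RNA per cell cannot be told apart.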

How the data were processed

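Affymetrix 3' arrays of 2 Sox9cKO and 2 SmoM2 samples were read from the log2 signals deposited by the authors, 1 per probe set and array. Their normalization was not given in the sources used here. The submitters' processing notes list R 2.14.0 with no role. The range of the values fits log2 signals, and they were used unaltered. Normalization may have taken out a shift common to many genes. Arrays give no read depth.

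The 64 control probe sets, and probe sets with several symbols (932) or not listed in the platform annotation (9160), were left out of the gene fit. Entrez IDs gave RefSeq symbols for 34754 probe sets, among them older names such as Il1f6. Each gene was represented by its brightest probe set, by mean over all arrays. Sox9cKO was compared with SmoM2 with limma 3.58.1 in R 4.3.3 (lmFit and eBayes, default prior, two-sided, no covariate, 7.17 degrees of freedom), with Benjamini-Hochberg adjustment over 18193 genes or 45037 probe sets and a threshold of 0.05. The procedure was tested on simulated data.

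The cytokine genes and lists were chosen with earlier results of these data known. Of 231 list entries 212 were measured, and the others were not analysed here. Named are the 10 genes, Sox9, up to 4 called genes of each list by smallest p, receptors of the cytokines by role, the 5 closest profiles and the nearest neighbours on the chromosome. Genes named beyond these, among the list genes that were not called, the markers and the run of IL-1 family genes, were chosen after their values were seen. Alternatives were averaging over probe sets, leaving out _x_at and _s_at probe sets, an intensity trend with robust prior, leaving out dim genes, quantile normalization, the replicate number as a block, and each array left out in turn.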

Additional observations from a re-analysis of the deposited data

How the results depend on the processing

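Counts of called genes depended on the arrays used. As each array was left out in turn, the count over all genes lay between 534 and 900, against 1126 with all arrays, that of the 10 cytokine genes between 1 and 2, and that of their probe sets between 1 and 4. In the same fits the counts were 2 to 3 for processing genes, 1 to 2 for IL-1 receptor and NF-kB signalling, 0 to 1 for JAK, STAT and SOCS genes, 0 to 1 for other epidermal cytokines, 0 to 4 for receptors of other cytokines and 0 to 3 for regulators of Tslp. Those fits hold fewer samples, and the lone array is assumed to vary like the other genotype. The 3 IL-36 calls and that of Il1r2 held in each of them. The difference of Il33 lay between -0.67 and 0.38 and that of Il1b between -0.047 and 0.25, so both changed sign, Il33 without SmoM2 replicate 2 and Il1b without SmoM2 replicate 1. Leaving out dim genes kept 1 of the cytokine calls, because Tslp itself fell under the filter. Regulators of Tslp counted 2 with the mean of probe sets and 2 with quantile normalization, and JAK, STAT and SOCS genes 1 without _x_at and _s_at probe sets, and the cause was not tested.

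The replicate number as a block gave 1919 calls over all genes, 4 among the cytokine genes and 5 among their probe sets. It also gave 4 among other epidermal cytokines, 6 among receptors of other cytokines, 5 in IL-1 receptor and NF-kB signalling and 1 among JAK, STAT and SOCS genes. The cytokine genes it added were Il18 (-0.74) and Il34 (0.60). Deviations from the group means correlated at 0.092 over genes between same-numbered arrays, and the labels name nothing that they share. Control probe sets were alike by number, with hybridisation controls at 10.92 and 9.82 in Sox9cKO replicates 1 and 2, against 10.74 and 10.32 in SmoM2 replicates 1 and 2. The pairing is not used elsewhere. Over the 10 cytokine genes and 22 called list genes, 263 of the other values kept direction and side of the threshold, 45 lost a call and 2 gained one.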

Other observations

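The genes next to the cytokine genes on their chromosomes (RefSeq, GRCm38.p6) were read as well. Of 18 such neighbours, 17 were measured and 1 was called, which is close to the share of all genes (6.19%). The called gene was Ckap2l, a mitotic spindle gene beside Il1a, with 8.71 and 8.67 in Sox9cKO, against 7.70 and 7.585 in SmoM2 (difference 1.05, SE 0.13). The other 16 differed by between -0.68 and 0.55. Gypc and Wdr36, on either side of Tslp, differed by 0.55 (adjusted p = 0.195) and -0.11 (adjusted p = 0.787).

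The profiles closest to that of Il1rn over the 4 arrays were those of Fras1, a basement membrane gene, Slc1a1, Lamb3, Nfatc1 and Cebpd, at distances of 0.17 to 0.19. Fras1 and Slc1a1 lay within the range of the genes of other organs on every array. Cebpd, a C/EBP transcription factor, had 8.24 and 8.56 in Sox9cKO, against 9.47 and 9.86 in SmoM2. Lamb3, a laminin chain of the epidermal basement membrane, had 8.15 and 8.48 in Sox9cKO, against 9.37 and 9.76 in SmoM2.

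Clcf1, a cytokine of the IL-6 family, had 6.74 and 6.70 in Sox9cKO, against 7.26 and 9.06 in SmoM2. Its difference of -1.45 (adjusted p = 0.172) rested largely on SmoM2 replicate 2.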
